A study of Arabidopsis thaliana with 12 samples.

Results

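The transcripts described here encode 4 nuclear-encoded proteins of the photosynthetic membrane of Arabidopsis thaliana. They are LHB1B2 (AT2G34420), PSAN (AT5G64040), PSBY (AT1G67740) and PSBW (AT2G30570). They are 4 loci picked by name, each with an array probe that the platform's gene table ties to that gene alone. Each has 1 such probe, and they make up 4 of the 691 genes that have one. They are not all such loci: PSB27, also listed for photosystem II, has a probe of its own and is described apart below. All 4 probes read above 0 on all 12 arrays, so no filter on low values removed any of them.

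Plants of the prors2 line, described in the labels as a mutant without prolyl-tRNA synthetase, were compared with wild-type (WT) plants. Both were of ecotype Columbia 0. Total RNA of 6 prors2 samples and 6 WT samples was measured on single-channel arrays of 3439 features, and the labels number the samples of each genotype 1 to 6. The sources used here give no tissue, age, light regime or allele of prors2. Nor do they say that each sample came from plants of its own, so every p-value below rests on a spread between samples that may be technical. No probe was tied to AT5G52520 or AT3G62120, the 2 prolyl-tRNA synthetase loci looked for. The lack of the enzyme, as the labels describe it, could therefore not be checked in the arrays.

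Prolyl-tRNA synthetase loads proline onto its tRNA, a step without which proline codons cannot be read. Photosystem I and photosystem II are the pigment-protein complexes that drive electron flow in the thylakoid membrane, and each is built from plastid-encoded core proteins together with nuclear-encoded subunits imported from the cytosol. Light is gathered for photosystem II by an antenna of chlorophyll a/b-binding proteins. LHB1B2 is an LHCB1 protein, a major constituent of the trimeric antenna of photosystem II. PSAN is a subunit on the lumen side of photosystem I, where plastocyanin docks. PSBY and PSBW are small membrane-spanning subunits of photosystem II. The PSBY precursor is cut into a pair of similar single-helix proteins, and PSBW helps to hold the photosystem II core and its antenna together.

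The deposited values are relative intensities on a linear scale with a ceiling of 100, whose reference is not stated. The arrays of the 2 genotypes differed as a whole. The median feature stood between 0.279 and 0.305 on prors2 arrays and between 0.135 and 0.169 on WT arrays, while array sums ran from 3107 to 3278 in prors2 and from 2942 to 3167 in WT. The log2 difference, prors2 minus WT, of the median tested feature was therefore 0.76 on the deposited values and 0.69 with the arrays scaled to equal sums. It was 0.07 after quantile normalization, which gives every array the same distribution, and -0.06 after median centring. The arrays of replicates 1 and 2, of 3 and 4, and of 5 and 6 also deviated together, so values are given by these 3 sets where the sets matter. Precision is limited by the number of arrays.

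The transcripts of the antenna protein, the photosystem I subunit and 1 of the photosystem II subunits were lower in prors2, at 32.3% to 37.6% of the WT intensity. PSBW, the other photosystem II subunit, had a mean intensity of 117% of WT. It did not pass in the main fit, which leaves the replicate numbers unpaired. With the replicate number as a block it was called higher, in a fit that called 28% of all tested features higher. The limma fit on quantile-normalized log2 values called 3 of the 4 genes lower (adjusted p below the threshold of 0.05). Among all 3024 tested features 22.4% were called lower in that fit. In RNA from whole samples, fewer cells of a type and less RNA per cell cannot be told apart.

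LHB1B2, the antenna gene, had a lowest, median and highest relative intensity of 10.04, 10.5 and 11.1 in prors2, against 29.4, 32.7 and 35.3 in WT. All prors2 values lay below all WT values, as they did for 6.38% of the tested features. The means were 10.6 ± 0.36 in prors2 and 32.7 ± 2.0 in WT (SD, n = 6 each), which puts prors2 at 32.3% of WT. The log2 difference after quantile normalization was -1.23 (SE 0.076, limma adjusted p = 1.75e-07). Of the 4 transcripts it varied least within a genotype, with a coefficient of variation of 3.38% in prors2 and 6.08% in WT. LHB1B2 is 1 of 5 LHCB1 loci with near-identical coding sequences, so its probe may also read the others, and the probe sequence was not used here.

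PSAN, the photosystem I gene, had a lowest, median and highest intensity of 2.90, 3.20 and 3.82 in prors2, against 7.84, 9.23 and 10.1 in WT. The ranges were again apart. Its means were 3.31 ± 0.39 in prors2 and 9.04 ± 0.81 in WT (SD, n = 6 each), so that prors2 held 36.6% of the WT intensity. The normalized log2 difference was -1.24 (SE 0.12, limma adjusted p = 4.92e-06).

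PSBY, a photosystem II gene, had a lowest, median and highest intensity of 2.37, 2.97 and 3.51 in prors2, against 6.57, 8.27 and 8.97 in WT. As for LHB1B2 and PSAN, no prors2 array reached the WT range. The means of 2.97 ± 0.42 in prors2 and 7.89 ± 0.98 in WT (SD, n = 6 each) put prors2 at 37.6% of WT. The normalized log2 difference was -1.22 (SE 0.14, limma adjusted p = 2.88e-05). In both genotypes the PSBY intensity was lowest in replicates 3 and 4, whose means were 2.51 in prors2 and 6.68 in WT. The replicates 5 and 6 averaged 3.42 in prors2 and 8.44 in WT.

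PSBW, the other photosystem II gene, had a lowest, median and highest intensity of 25.2, 41.9 and 55.2 in prors2, against 19.4, 35.9 and 48.9 in WT. The ranges overlapped widely. The means were 40.4 ± 13.02 in prors2 and 34.6 ± 11.6 in WT (SD, n = 6 each), or 117% of WT, and the normalized log2 difference of 0.51 (SE 0.27) did not pass (limma adjusted p = 0.143). With the replicate number as a block the same difference passed (SE 0.079, limma adjusted p = 0.00192), in a fit that called 28% of all tested features higher.

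The spread of PSBW lay between the sets of replicates rather than within them. Replicates 1 and 2 averaged 41.9 in prors2 and 35.9 in WT. Replicates 3 and 4 were the highest in both genotypes, at 54.1 in prors2 and 46.7 in WT. Replicates 5 and 6 were the lowest in both, at 25.2 in prors2 and 21.1 in WT. Within each set the prors2 mean was the higher. The coefficient of variation of PSBW was 32.2% in prors2 and 33.6% in WT, several times that of LHB1B2. With the sets as a block the normalized PSBW difference of 0.51 had an SE of 0.066 (limma adjusted p = 1.32e-04), in a fit that called 27.8% of all tested features higher. With the sets averaged it did not pass (limma adjusted p = 0.356). What the sets stand for is not given in the labels, and why PSBW differed between them was not tested.

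**Figure D1:**
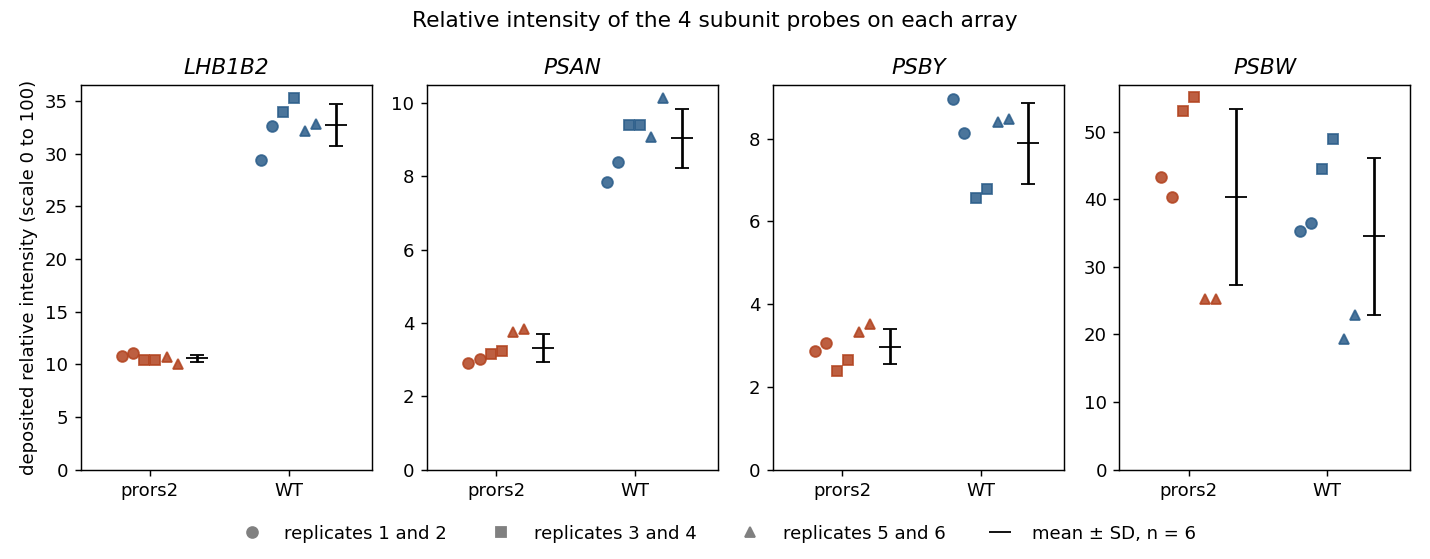
Deposited relative intensity (linear scale, 0 to 100) of the LHB1B2, PSAN, PSBY and PSBW probes on each array, with prors2 left of WT; marker shapes give the sets of replicate numbers and black bars the mean ± SD (n = 6). For LHB1B2, PSAN and PSBY the prors2 points lie below all WT points, while the PSBW points overlap and follow the sets, with replicates 5 and 6 lowest in both genotypes.

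Set against the WT sample of the same number on the deposited values, the 3 lowered transcripts were lower in 6 of 6 pairs each, as were 9.56% of all tested features. PSBW was higher in 6 of 6 pairs, as were 55.3% of features. Its mean difference of 0.23 lay below 0.76, the median difference over all tested features. Most features were far dimmer than PSBW, with a median intensity of 0.305 or less on every array against 19.4 or more for PSBW. Whether features as bright as PSBW shifted by as much was not tested. The log2 difference of LHB1B2 ran over the pairs from -1.76 to -1.45, that of PSAN from -1.57 to -1.28 and that of PSBY from -1.64 to -1.27. The PSBW difference ran from 0.14 to 0.38, a narrow range beside the spread of the unpaired PSBW values. A two-sided exact sign-flip test over the 6 pairs gave p = 0.0312 for each of the 4 genes, the smallest that 6 pairs can give. This test and the exact permutation tests below count every pair or array as independent, though the arrays of a set deviated together. Only the limma fit was also run with the sets averaged. That each number pairs a prors2 with a WT sample was seen in the data and is not stated in the labels.

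**Figure D2:**
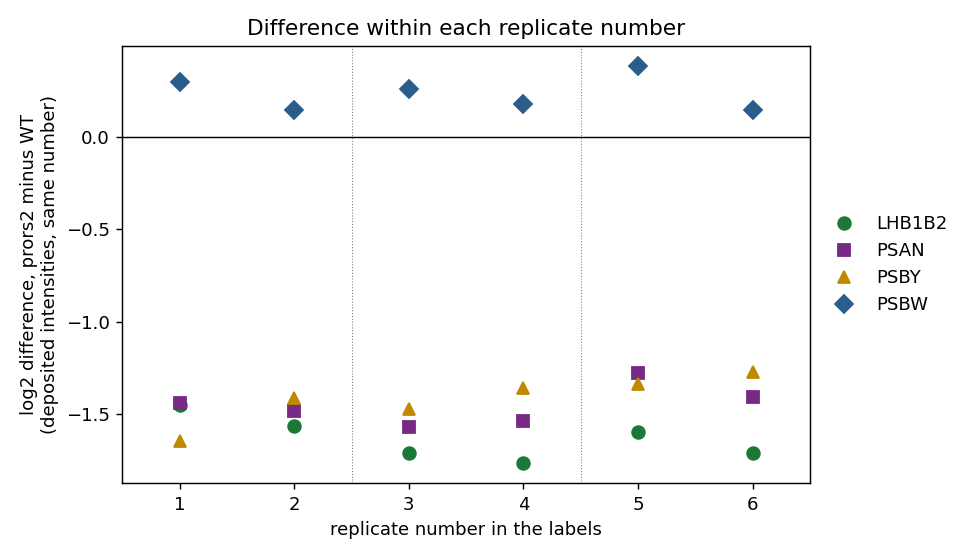
Log2 difference of deposited intensities (prors2 minus WT) for samples of the same replicate number, 1 point per gene and number, with dotted lines between the sets of numbers. LHB1B2, PSAN and PSBY lie between -1.76 and -1.27 at every number, and PSBW lies between 0.14 and 0.38.

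LHB1B2, PSAN and PSBY were lower in each set of replicates. LHB1B2 differed by -1.51, -1.74 and -1.65 on the deposited log2 scale in replicates 1 and 2, 3 and 4, and 5 and 6. PSAN differed by -1.46, -1.55 and -1.34, and PSBY by -1.53, -1.41 and -1.30. The PSBW differences were 0.22, 0.21 and 0.26. After quantile normalization the sets were less even for PSBY, at -1.42, -1.30 and -0.94, and for PSAN, at -1.30, -1.36 and -1.07. LHB1B2 then lay at -1.12, -1.28 and -1.31. With the sets averaged, so that 3 prors2 values stood against 3 WT values, the normalized differences of LHB1B2, PSAN and PSBY still passed (limma adjusted p = 0.00317, 0.00647 and 0.00985), in a fit that called 14.3% of all features lower. That of PSBW did not (limma adjusted p = 0.356).

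Because the arrays differed as a whole, the size of each fall depends on how they are scaled, and for PSBW the sign does too. LHB1B2 differed by -1.63 on the deposited values, by -1.70 with equal sums and by -2.46 with median centring. PSAN differed by -1.45, -1.52 and -2.28 under the same scalings, and PSBY by -1.42, -1.49 and -2.24. All of these passed in limma, with adjusted p-values between 1.61e-09 and 3.02e-06. PSBW differed by 0.23, 0.16 and -0.59 and passed under none of the 3 (limma adjusted p = 0.482, 0.608 and 0.0648). With quantile normalization included, LHB1B2, PSAN and PSBY were called lower in all 4 fits. PSBW was called lower in 0, though its difference was negative with median centring. The share of all tested features called lower was 8.9% on the deposited values, 9.85% with equal sums and 29.1% with median centring.

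Where the 3 lowered transcripts stand among all features also depends on the scaling. On the deposited values 43 of the 3024 tested features had a more negative log2 difference than LHB1B2, 60 than PSAN and 63 than PSBY. Equal sums and median centring gave the same 3 counts. These scalings apply a single factor per array, which keeps the order of features read on every array. After quantile normalization the counts were 225, 221 and 229. PSBW lay nearer the middle of the table, with 26.9% of features below it on the deposited values and 71.1% after quantile normalization.

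**Figure D3:**
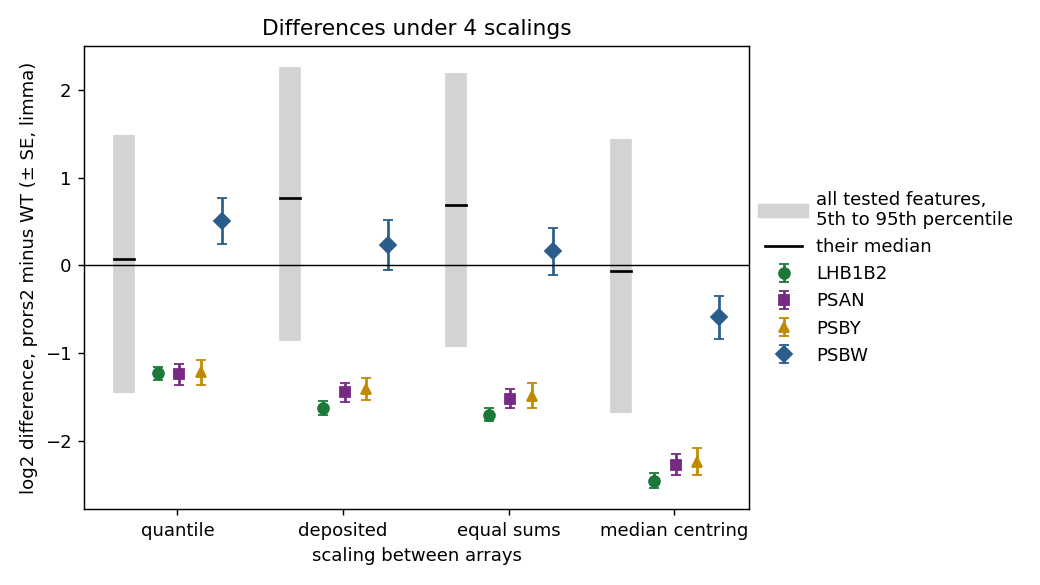
Log2 difference (prors2 minus WT, ± SE from limma) of the 4 genes under 4 scalings between arrays, beside the 5th to 95th percentile (grey) and median (black) of all 3024 tested features. LHB1B2, PSAN and PSBY lie below 0 under every scaling, while PSBW moves from 0.51 after quantile normalization to -0.59 after median centring.

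A rank within the array does not change with the scaling. On prors2 arrays 34 to 37 features were brighter than LHB1B2, against 15 to 18 on WT arrays. For PSAN the numbers were 100 to 144 in prors2 and 44 to 59 in WT, and for PSBY 106 to 182 in prors2 and 46 to 70 in WT. The mean percentile rank of LHB1B2 was 99.0 in prors2 and 99.5 in WT, a difference of -0.572 points. It differed by -2.10 points for PSAN, at 96.4 in prors2 and 98.5 in WT, and by -2.39 for PSBY, at 95.9 in prors2 and 98.3 in WT. The two-sided exact permutation p was 0.00216 for each, the smallest that 6 against 6 samples can give, and 0.00715 after adjustment over all 3024 features, of which 24.2% passed with a lower rank. PSBW had 7 to 16 brighter features in prors2 and 9 to 21 in WT, and its rank difference of 0.107 points did not pass (exact permutation p = 0.236). Over the replicate pairs it did (exact sign-flip p = 0.0312), and it was 0.0659 points without WT replicate 5.

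Whether the subunits changed unequally was asked from the log2 ratio of 2 probes on the same array, in which any constant factor of that array cancels. There are 6 pairs among the 4 genes. A ratio between 2 probes carries their unknown labelling efficiencies, so only its difference between genotypes is read. The tests below are two-sided exact permutation tests over the 12 arrays, adjusted by Benjamini and Hochberg over the 6 pairs.

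The 3 pairs with PSBW all differed. The ratio of LHB1B2 to PSBW was lower in prors2 by a log2 difference of -1.86 (SE 0.29, p = 0.00216, adjusted p = 0.00649 by the exact permutation test), a 3.64-fold lower ratio. The antenna transcript and PSBW thus changed unequally. The ratio of PSAN to PSBW differed by -1.68 (SE 0.35, exact permutation p = 0.00216, adjusted 0.00649). The ratio of PSBY to PSBW, both photosystem II subunits, differed by -1.65 (SE 0.40, exact permutation p = 0.00433, adjusted 0.00866). Each of the 3 ratios was lower in prors2 in 6 of 6 pairs of the same number. The differences within the pairs ran from -1.97 to -1.71 for LHB1B2, from -1.83 to -1.55 for PSAN and from -1.94 to -1.41 for PSBY. By sets of replicates they were -1.72, -1.95 and -1.91 for LHB1B2, -1.68, -1.77 and -1.60 for PSAN, and -1.75, -1.63 and -1.57 for PSBY. After quantile normalization the 3 differences were -1.74, -1.75 and -1.73, with the same permutation p-values. The exact sign-flip test over the replicate pairs gave p = 0.0312 for each on both scales, the smallest that 6 pairs can give. After adjustment the sign-flip p was 0.0469 for each on the deposited values and 0.0625 for each after quantile normalization, which does not pass. The adjusted values differ only through LHB1B2 over PSAN, whose sign-flip p was 0.0312 on the deposited values and 0.844 after normalization. The move past the threshold is therefore no change in these 3 ratios.

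Among the 3 lowered transcripts no pair passed. LHB1B2 over PSAN, antenna against photosystem I, had a mean log2 ratio of 1.68 ± 0.20 in prors2 and 1.86 ± 0.093 in WT (SD, n = 6 each). The difference of -0.18 (SE 0.090) did not pass in the exact permutation test (p = 0.0823, adjusted p = 0.123). It was negative in 6 of 6 pairs of the same number and passed in the exact sign-flip test over them (p = 0.0312, adjusted p = 0.0469). It also passed without prors2 replicate 1, at -0.22 (exact permutation adjusted p = 0.0455). By sets it lay at -0.05, -0.18 and -0.31. After quantile normalization the same difference was 0.0097 (SE 0.11, exact permutation p = 0.944).

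LHB1B2 over PSBY, antenna against photosystem II subunit, had a log2 ratio of 1.84 ± 0.22 in prors2 and 2.06 ± 0.26 in WT (SD, n = 6 each). The difference of -0.22 (SE 0.14) did not pass (exact permutation p = 0.152, adjusted p = 0.182), and it was negative in 5 of 6 pairs of the same number. Replicate 1 was the exception, at 0.19. After quantile normalization the difference was -0.011 (SE 0.16, exact permutation p = 0.952) and negative in 3 of 6 pairs. PSAN over PSBY, photosystem I against photosystem II, stood at 0.16 ± 0.17 in prors2 and 0.20 ± 0.27 in WT (SD, n = 6 each). That difference of -0.04 (SE 0.13, exact permutation p = 0.781) was the smallest of the 6 and took both signs, from -0.18 to 0.21 over the pairs. Its sign turned without prors2 replicate 2, WT replicate 3 or WT replicate 4, at 0.0021, 0.03 and 0.02.

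**Figure D4:**
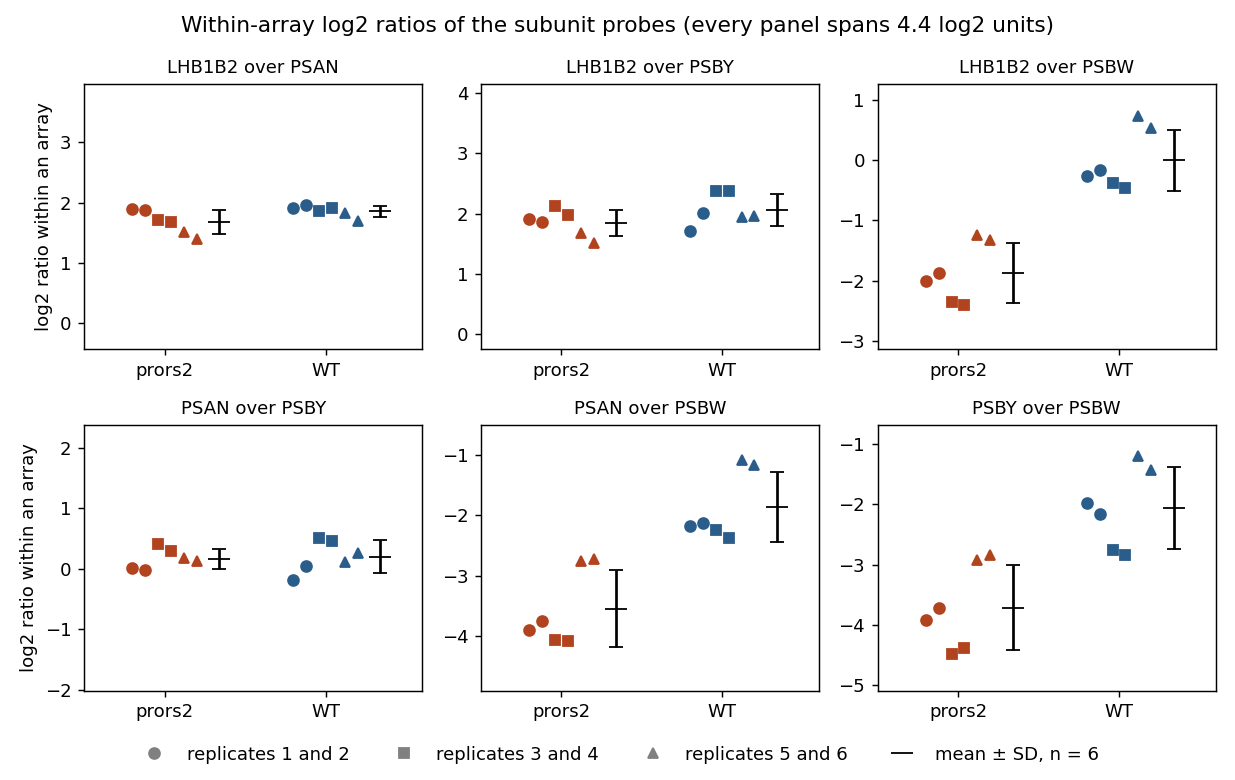
Log2 ratio of 2 probes on the same array for the 6 pairs of genes, prors2 left of WT, with marker shapes for the sets of replicate numbers and black bars for mean ± SD (n = 6); every panel spans the same number of log2 units. The mean ratios of LHB1B2, PSAN and PSBY to PSBW are lower in prors2, with log2 differences of -1.86, -1.68 and -1.65, PSBY over PSBW overlaps slightly (-2.84 in prors2, -2.85 in WT), and the other 3 panels overlap widely.

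The rest of the pathway was thinly covered. Of 58 nuclear loci listed for the antennae, the subunits of both photosystems, electron transport and the plastid ATP synthase, 5 had a single-gene probe, and all 5 were tested. They are the 4 genes above and PSB27 (AT1G03600), which assists the assembly and repair of photosystem II from the lumen side. Of these 5 genes 3 were called lower, 1 was called higher and 1 did not pass, beside 22.4% lower and 24.8% higher among all tested features. The median log2 difference was -1.22 over the 5 genes, which is the value of PSBY, and 0.07 over all features. PSBW and PSB27 lay at 0.51 and 0.62. Only PSB27 adds to the genes already described, so the median says little of the rest of the pathway. A further 5 of the 58 loci appear on probes shared by several genes, which are not analysed here. None of the 6 photosystem I antenna loci had a probe of its own, so the antenna comparison rests on LHB1B2 alone. Of 6 marker loci listed for seed, root and senescing tissue, 0 had a single-gene probe.

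PSB27 was the 1 gene of the list called higher, with intensities from 2.25 to 3.56 in prors2 and from 1.56 to 2.02 in WT. Its normalized log2 difference was 0.62 (SE 0.15, limma adjusted p = 0.00483). PSB27 differed by 0.64 on the deposited values and by 0.57 with equal sums, below the 0.76 and 0.69 of the median feature. Most features were dimmer than PSB27, with a median intensity of 0.305 or less on every array. PSB27 did not pass after median centring, at -0.19, or with the sets averaged (limma adjusted p = 0.0860). On the deposited log2 scale the PSB27 differences within pairs spanned 0.27 to 1.12, a wider range than that of LHB1B2.

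The single-gene probes nearest to each transcript were found among 509 others with a value on every array, by the root mean square distance over the 12 samples between normalized log2 profiles centred on their means. The distance between LHB1B2 and PSAN was 0.17, which made LHB1B2 the nearest of all to PSAN and PSAN the second nearest to LHB1B2. PSAN was also the second nearest to PSBY, at 0.22. The distances of PSBW to the 3 lowered transcripts were 0.98, 1.04 and 1.07. The nearest to LHB1B2 was GLDH (AT3G47930), which carries out the final step of ascorbate synthesis, at 0.16, and AT1G72020 followed PSAN, at 0.17. After LHB1B2, the probes nearest to PSAN were AT5G58330, the plastid NADP-dependent malate dehydrogenase, at 0.19, and AT3G25840, at 0.20. PSBY had AT4G00170 nearest, at 0.19, and AT1G18060 after PSAN, at 0.22. PSBW had no probe as close, with AT1G09200, a histone H3 gene, at 0.26, AT2G47360 at 0.27 and AT2G26680 at 0.27. These distances describe the 12 arrays. The profiles were centred on their means over both genotypes, so the genotype differences given above enter every distance. The closeness of the 3 lowered transcripts, and the distance of PSBW from them, is therefore not separate from those differences. The neighbours from outside the 4 genes depend on the scaling. With median-centred arrays 0 of those 9 genes stayed among the nearest 3, while PSAN stayed with LHB1B2 and PSBY, and LHB1B2 with PSAN. On the deposited scale AT4G00170 averaged 0.21 in prors2 and 0.24 in WT, and AT1G18060 averaged 0.28 and 0.29. In the same order GLDH averaged 0.32 and 0.43, AT1G72020 0.31 and 0.41, and AT3G25840 0.40 and 0.52. AT5G58330 averaged 0.80 and 1.75.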

How the data were processed

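Total RNA of 6 prors2 and 6 WT samples was measured on single-channel arrays. The deposited table gives linear relative intensity values with a ceiling of 100. How the authors corrected for background, and with which software and array, is not given here. There were 0 columns of other samples and 0 identical pairs of columns. The 4 genes and all lists were chosen with earlier results of these data known.

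After zeros had been set to missing, the log2 intensities were brought to a common distribution (quantile normalization). For the 3024 features that read above 0 in at least 4 of 6 samples of each genotype, limma 3.58.1 (R 4.3.3) fitted the genotype difference. Two-sided p-values were adjusted over all of them (Benjamini-Hochberg). The fit was tested on simulated data. Within-array ratios and ranks were compared with exact permutation tests in Python 3.11.15. Of 692 single-gene probes in the platform table, 690 had a TAIR10.1 entry, from which symbols were taken. Coordinates are left out, since the array's build is unknown. Named genes are the 4 genes, other listed loci with a single-gene probe, and the 3 nearest profiles to each gene.

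The pairing by replicate number was checked over the 2654 complete features. Deviations from the genotype means correlated between 0.212 and 0.399 for samples of the same number. The numbers were taken as pairs in the replicate block and the sign-flip tests. The main limma fit and the exact permutation tests left them unpaired. For samples of other number and genotype the mean correlation was 0.117 within the 3 sets and -0.104 between them. Other settings tried were the replicate block, 3 further scalings, zeros replaced by small values, no features of the dimmest 25%, other variance models, array weights, permutation per feature and each sample left out. Fits on the sets (blocked, averaged) and the sign-flip test on normalized ratios were added after seeing the data.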

Additional observations from a re-analysis of the deposited data

Results flagged for a closer look

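The lowest of the 6 normalized LHB1B2 values in WT, 4.59 in replicate 1, lay apart from the other 5 by more of the whole range than Dixon's 95% critical value for a group of this size. On the deposited scale the same sample was the lowest at 29.4 but did not lie apart in this sense. Of 28 sets of 6 values checked this was the 1 found, and chance gives about 1 in 20. Without WT replicate 1 LHB1B2 differed by -1.26 (limma adjusted p = 6.77e-07).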

How the results depend on the processing

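The calls of LHB1B2, PSAN and PSBY as lower held under all 24 alternatives, and their normalized log2 differences ran from -1.27 to -1.21, from -1.32 to -1.19 and from -1.31 to -1.15 when each sample was left out in turn. PSBW, at 0.51 and not past the threshold, passed with the replicate block (0.51, limma adjusted p = 0.00192) and with the sets as a block (0.51, limma adjusted p = 1.32e-04), and turned to -0.59 after median centring. With the sets averaged 908 features were called in place of 1427, from fewer values per group. LHB1B2 over PSAN passed in the sign-flip test on the replicate pairs (-0.18, exact adjusted p = 0.0469), was 0.0097 after quantile normalization, and ran from -0.22 to -0.12 with a sample left out. PSAN over PSBY ran from -0.11 to 0.0271. The PSBW rank difference of 0.107 points passed in the exact sign-flip test on the replicate pairs (p = 0.0312). After quantile normalization the PSBW ratios of LHB1B2, PSAN and PSBY (-1.74, -1.75 and -1.73) did not pass that sign-flip test on the replicate pairs (adjusted p = 0.0625 each). The replicate block changed no limma call of LHB1B2, PSAN or PSBY. Of the 9 nearest genes from outside the 4, 0 were kept after median centring. Apart from that adjustment of the sign-flip p-values, the cause of these changes was not tested. The values of the 4 genes themselves lay between 2.37 and 55.2, not near 0. Dim features still bear on their differences through the scaling. Median centring sets each array by its middle feature, and the median intensity was 0.305 or less on every array.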
